A study of Rattus norvegicus with 36 samples.

Results

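Prm3, Chd5, H3f4, Klhl10 and Gopc are genes of the haploid phase of sperm formation, in which the nucleus is compacted and the acrosome is built. Their DNA methylation was followed here through rat male germ cell development. Every region that the authors annotated to a transcript of one of these 5 genes was taken, which gave 23 regions out of the 60036 distinct regions in the authors' lists. Chd5 had 14 regions, Klhl10 had 4, H3f4 and Gopc had 2 each, and Prm3 had 1.

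All animals were untreated Sprague-Dawley rats of the genotype GFP-GCS, a transgene that marks germ cells alone with green fluorescent protein and lets them be sorted by fluorescence. The 36 samples fell into 9 stages of 4 samples each. Gonocytes, the fetal precursors of spermatogonia, were labelled GD16, GD18 and GD20 for the gestational day, and spermatogonia PND5 for the postnatal day. Spermatids were labelled R1-8, R9-12, R13-14 and R15-17, ranges that the labels give without further definition, and the last stage was spermatozoa (SPZ). DNA of sorted cells and of spermatozoa was extracted with different kits, and whether the 4 samples of a stage are different animals is not stated in the labels.

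Bisulfite sequencing was restricted to captured regions of the genome, and the authors compared neighbouring stages in 7 lists. For each listed region the authors' deposited table gives the mean methylation level of both stages, printed here in percent, and an adjusted p-value. Values per sample were not used here, so the levels carry neither an SD nor a sample number, and the depth behind them is unknown. Nor are the adjusted p-values read here as a measure of the spread between samples. Listed differences started at 30 points before the spermatid stages and at 10 points within them. A region without a level at a stage may have changed by less, not have passed or not have been covered. Neighbouring lists share their middle stage. PND5 was set against R1-8 in none of the lists used here, so levels on either side of that gap are given side by side only. Methylation does not measure expression, so the identity of the sorted cells could not be checked against expressed markers.

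In elongating spermatids, histones are removed from the chromatin, transition proteins take their place for a time, and protamines then package the DNA. Histone variants of the testis loosen nucleosomes beforehand, and Chd5, a chromatin remodelling enzyme, is needed in the mouse for an orderly exchange of histones for protamines. Ubiquitin ligases mark proteins for removal during this rebuilding, while vesicles from the Golgi apparatus fuse into the acrosome, the cap that carries the enzymes for egg penetration. DNA methylation itself is erased in early fetal germ cells and laid down again in gonocytes before birth.

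Prm3 lies in the protamine gene cluster, and its protein is an acidic relative of the protamines. Its only listed region was annotated to the promoter and transcription start, at chr10:4950550-4951145 in the coordinates of the lists. Their genome build is unknown here. The windows of 250 bases before the start are shown for Prm3 and for its neighbours Prm1, a protamine, and Tnp2, a transition protein, because the authors' regions at these 3 starts are compared next. They are RefSeq sequences of the assembly GRCr8, all on the plus strand, and capitals mark the CpG sites, the bases that carry methylation. In that assembly they lie at chr10:5384144-5384393 for Prm3, chr10:5378490-5378739 for Prm1 and chr10:5386485-5386734 for Tnp2, and they cannot be placed within the authors' regions.
Prm3: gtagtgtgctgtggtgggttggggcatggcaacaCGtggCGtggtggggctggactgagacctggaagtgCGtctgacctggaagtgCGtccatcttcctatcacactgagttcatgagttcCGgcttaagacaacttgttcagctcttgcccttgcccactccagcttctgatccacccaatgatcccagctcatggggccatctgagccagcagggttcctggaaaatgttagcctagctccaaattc
Prm1: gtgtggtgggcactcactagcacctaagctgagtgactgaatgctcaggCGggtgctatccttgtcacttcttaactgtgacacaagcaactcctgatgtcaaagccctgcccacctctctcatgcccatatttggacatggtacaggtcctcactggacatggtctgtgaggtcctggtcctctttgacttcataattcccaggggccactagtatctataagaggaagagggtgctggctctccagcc
Tnp2: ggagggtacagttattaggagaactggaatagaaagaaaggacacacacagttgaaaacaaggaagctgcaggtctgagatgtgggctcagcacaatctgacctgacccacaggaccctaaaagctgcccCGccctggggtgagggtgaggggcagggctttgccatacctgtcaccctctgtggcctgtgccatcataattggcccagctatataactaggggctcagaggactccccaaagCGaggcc
The Prm3 window holds 5 CpGs, the median over the 33469 promoters of that table, against 1 in the Prm1 window and 2 in the Tnp2 window. Windows of all 5 genes were found in the table, with 3 CpGs for H3f4, 7 for Klhl10, 20 for Gopc and 40 for Chd5, and 98.8% of promoters had fewer CpGs than Chd5. The cyclic AMP response element TGACGTCA, its shorter form TGACG, which is contained in it, and the TATA motif TATAAA were searched on both strands. None of these letters occurred in the windows of the 5 genes, Prm1 or Tnp2, while 1.59%, 18.22% and 12.93% of all promoters held them in that order. Only the exact letters were searched, so these promoters may still hold variants of the elements.

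The Prm3 promoter region, with 16 CpGs over 596 bp, was still little methylated at GD20 and gained most of its methylation by PND5. Its level was 9.0% at GD20 and 70.0% at PND5, a rise of 61.0 points with an adjusted p of 1.58e-32 in the authors' deposited table. No GD18 level was listed for it. Of all regions listed from GD20 to PND5, 2.0% had a lower level than Prm3 at GD20 and 5.3% a lower level at PND5, so it stood near the bottom at both stages. Its rise was larger than that of 87.1% of the rising regions in that list. The 979 rising promoter regions of that list had median levels of 44.6% and 95.9%, and 6.8% of them were below Prm3 at PND5.

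The other listed regions of the cluster were ahead of Prm3 at GD20. The Prm1 promoter, whose region lay 5050 bp away, stood at 6.1% at GD18, 45.1% at GD20 and 96.3% at PND5. The Tnp2 promoter, 2285 bp away on the other side, stood at 4.3%, 55.5% and 98.2% at the same stages. The Prm1 region at the transcription termination site (TTS) went from 33.4% at GD20 to 88.2% at PND5. A region without a matched gene name, 9561 bp from Prm3, went from 62.0% to 98.3% at these stages. At GD20 and at PND5 the Prm3 level was therefore below all 4 neighbours within 20 kb, a difference between regions that was not tested because no spread over samples was available.

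**Figure D1:**
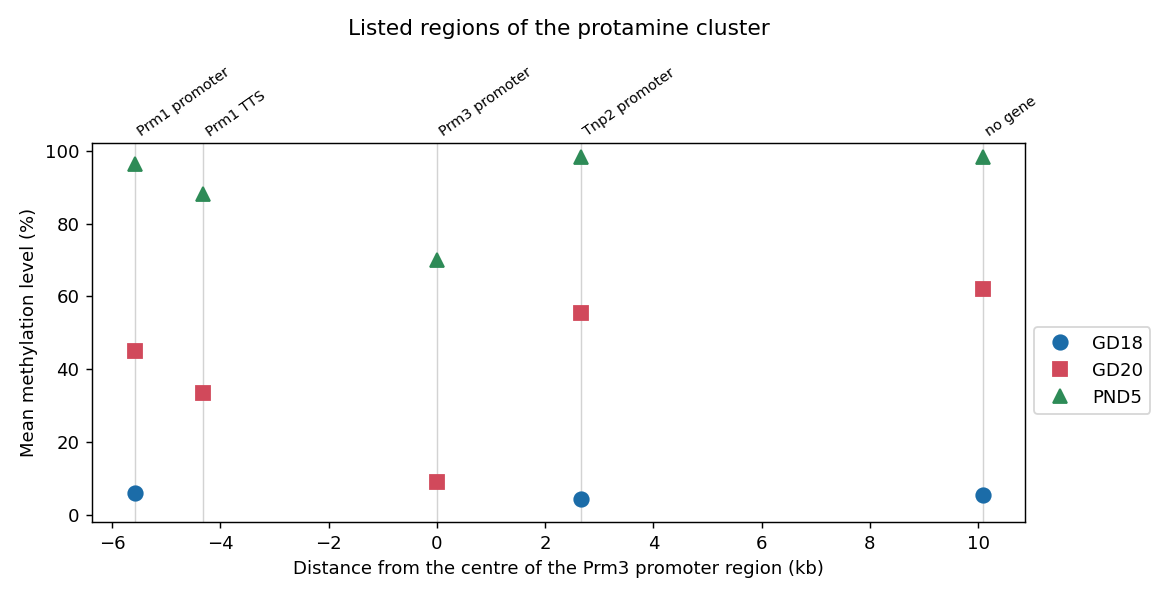
Mean methylation level in percent (vertical axis) of the 5 listed regions of the protamine cluster against the distance from the centre of the Prm3 promoter region in kb (horizontal axis), with circles for GD18, squares for GD20 and triangles for PND5. The Prm3 promoter lies lowest at GD20, at 9.0%, and at PND5, at 70.0%, and no GD18 level is listed for it or for the Prm1 termination site region.

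In spermatids the Prm3 promoter was highly methylated with a dip at R13-14. The levels were 86.3% at R9-12, 72.6% at R13-14 and 91.3% at R15-17. The fall was 13.7 points with an adjusted p of 0.00344 and the rise 18.7 points with an adjusted p of 1.90e-04, both in the authors' deposited table and both resting on the same R13-14 mean. The 4 neighbours of the cluster within 20 kb were in none of the spermatid lists.

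H3f4, a histone H3 variant of the testis, was listed only in spermatids, in short CpG-dense regions at the termination site. Both regions were little methylated and fell from R9-12 to R13-14. The region of 5 CpGs at chr10:45305044-45305095 went from 6.0% at R1-8 to 22.4% at R9-12 and 3.8% at R13-14. It rose by 16.4 points with an adjusted p of 0.0474 and fell by 18.6 points with one of 0.0229 in the authors' deposited table, so both lay not far below the threshold of 0.05. The adjoining region of 6 CpGs at chr10:45304986-45305032, 11 bp away, went from 11.3% at R9-12 to 1.2% at R13-14 and thus fell by 10.1 points (adjusted p = 0.0170 in the authors' deposited table). With 47 bp it was the only region of the 5 genes under the 50 bp that the labels give as the shortest segment. Histone H3 genes are a family of near-identical copies, and the treatment of reads that match several copies is unknown here.

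A region without a matched gene name, 4522 bp from H3f4, ran the opposite course. Its level was 98.6% at R1-8, 84.9% at R9-12 and 99.8% at R13-14, after 11.9%, 52.5% and 97.6% at GD18, GD20 and PND5. R9-12 was thus the highest listed stage at the H3f4 termination site and the lowest spermatid stage in this neighbour.

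Chd5 gained methylation between GD18 and PND5 in listed regions spread from its first intron to its termination site. The stretches between these regions had no listed level. Of its 14 regions, 12 lay in introns other than the first, 1 in the first of 41 introns and 1 at the termination site, and none was annotated to the promoter. They spanned 46534 bp of chromosome 5 and held 147 CpGs. At GD18 the levels of the 13 regions listed at this step ran from 2.0% to 7.2% with a median of 4.6%. At GD20 they ran from 33.3% to 68.7% with a median of 51.1%, and each of the 13 had risen, by 30.7 to 62.1 points, with a largest adjusted p of 3.88e-05 in the authors' deposited table. At this step 74.1% of all 60036 regions rose and 0% fell. From GD20 to PND5, 12 of the 14 rose by 34.6 to 61.7 points to levels between 88.4% and 98.4%, with a median of 97.05% and a largest adjusted p of 9.99e-06 in the authors' deposited table, and 77.7% of all regions rose.

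GD20 was the stage at which Chd5 regions differed most from each other. Intron 3 stood at 62.5% and the second region of intron 2, only 817 bp away, at 33.5%, although both had started at 3.6% and 2.8% and reached 97.1% and 94.3% at PND5. Introns 9 and 38 had the highest GD20 levels, 68.7% and 66.5%, and were not listed at the following step, where full methylation would have been little more than the smallest listed difference away. The low end was held by the first intron at chr5:169520973-169521478, with 33.3%, the second region of intron 2, and intron 28, with 35.3%. The first intron was also lowest of the Chd5 regions at GD18, with 2.0%, and at PND5, with 88.4%. Among the Chd5 regions, the smallest p-values in both lists were those of intron 33, with 18 CpGs at chr5:169560804-169561310. Its level went from 4.1% to 51.1% and 97.5% (adjusted p = 8.60e-22 and 8.89e-22 in the authors' deposited table).

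**Figure D2:**
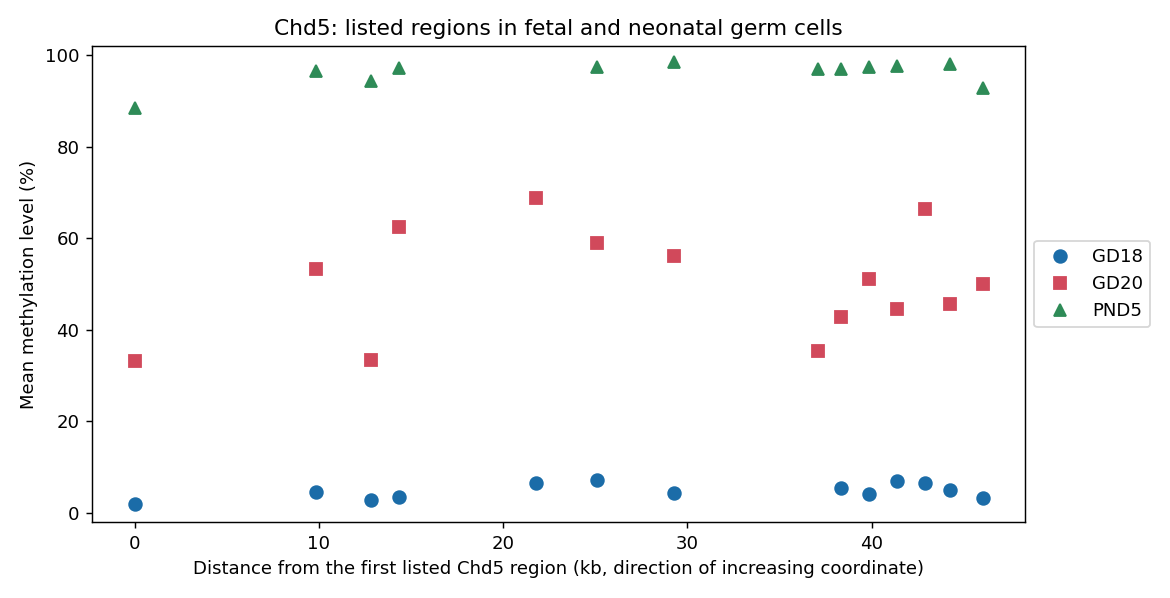
Mean methylation level in percent (vertical axis) of the listed Chd5 regions against the distance of each start from that of the first listed region in kb (horizontal axis), with circles for GD18, squares for GD20 and triangles for PND5. GD18 levels lie between 2.0% and 7.2% and PND5 levels between 88.4% and 98.4%, while GD20 levels spread from 33.3% to 68.7% along the gene.

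Regions on both sides of Chd5 were also listed. Within 20 kb, 13 further regions were listed. They lay in Rpl22, a ribosomal protein gene, in Kcnab2, a potassium channel subunit gene, or had no matched gene name. The 12 of them with fetal levels stood at 2.8% to 7.3% at GD18 and at 33.7% to 78.7% at GD20, with medians of 5.1% and 53.2%. The 9 with a PND5 level had a median of 97.3%. The remaining region, at the Rpl22 promoter, had spermatid and sperm levels only, between 0.0% and 18.1%. Chd5 medians of 4.6%, 51.1% and 97.05% lay close to these, and no test of the difference was made.

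In spermatids 2 of the 14 Chd5 regions were listed, where 15.7% of all regions were listed at any spermatid step, and they dipped at different stages. Intron 28, at chr5:169558075-169558456, stood at 97.3% at R1-8, 87.1% at R9-12 and 97.6% at R13-14. Its fall of 10.2 points (adjusted p = 0.0172) and rise of 10.5 points (adjusted p = 0.0175) in the authors' deposited table were close to the smallest listed difference. The first intron stood at 94.4% at R9-12, 79.4% at R13-14 and 94.4% at R15-17, with an adjusted p of 0.0344 for the fall and 0.0474 for the rise, both of the same size, in the authors' deposited table. At R9-12 the intron 28 level was thus the lower of the pair, and at R13-14 the first intron was lower; whether the courses of the 2 regions differ was not tested.

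Klhl10, the testis-specific adaptor that brings proteins to the Cul3 ubiquitin ligase and without which mouse spermatids do not mature, carried both kinds of region. Intron 2, at chr10:88362019-88362719 with 16 CpGs, rose from 5.2% at GD18 to 53.0% at GD20 and 95.0% at PND5 (adjusted p = 7.28e-21 and 1.82e-18 in the authors' deposited table). The termination site region at chr10:88372979-88373730 rose from 7.4% to 50.9% and 97.4% over the same stages. It was still highly methylated in spermatids, at 85.0% at R13-14 and 96.6% at R15-17 (adjusted p = 0.0155 in the authors' deposited table).

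Exon 3 of the 5 Klhl10 exons lay between these regions and was little methylated in spermatids, apart from a peak at R9-12. The region at chr10:88363713-88363879, with 8 CpGs, stood at 4.8% at R1-8, 27.4% at R9-12 and 4.9% at R13-14. The rise of 22.6 points (adjusted p = 5.46e-04) exceeded that of 90.6% of the regions rising at this step, and the fall of 22.5 points (adjusted p = 0.00151) exceeded 89.8% of the falls, in the authors' deposited table. These were the largest spermatid differences of the 5 genes. The adjoining region at chr10:88363882-88364155, with 16 CpGs and only 2 bp between them, fell from 15.3% at R9-12 to 2.8% at R13-14, by 12.5 points (adjusted p = 3.45e-09 in the authors' deposited table). No fetal or neonatal level was listed for exon 3, whose nearer region lay 993 bp from the intron 2 region.

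Gopc, a Golgi protein whose loss in the mouse leaves sperm round-headed and without an acrosome, had regions in exon 5 of 9 and intron 7 of 8 on chromosome 20. Exon 5, at chr20:33487605-33487723 with 5 CpGs, rose from 7.4% at GD18 to 72.4% at GD20. This rise of 65.0 points was the largest fetal difference of the 5 genes and exceeded that of 92.2% of the listed regions (adjusted p = 4.20e-10 in the authors' deposited table). Intron 7, at chr20:33479262-33479372 with 5 CpGs, rose from 4.1% to 46.6% at GD20 and 96.9% at PND5, so the exon was ahead of the intron at GD20.

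In spermatids Gopc exon 5 dipped at R13-14. It stood at 98.2% at R9-12, 83.2% at R13-14 and 98.3% at R15-17, with an adjusted p of 0.0199 for the fall and 0.0307 for the rise in the authors' deposited table. The rise was 15.1 points, and the fall, of nearly the same size, rests on the same R13-14 mean. No other listed region lay within 20 kb of either Gopc region.

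**Figure D3:**
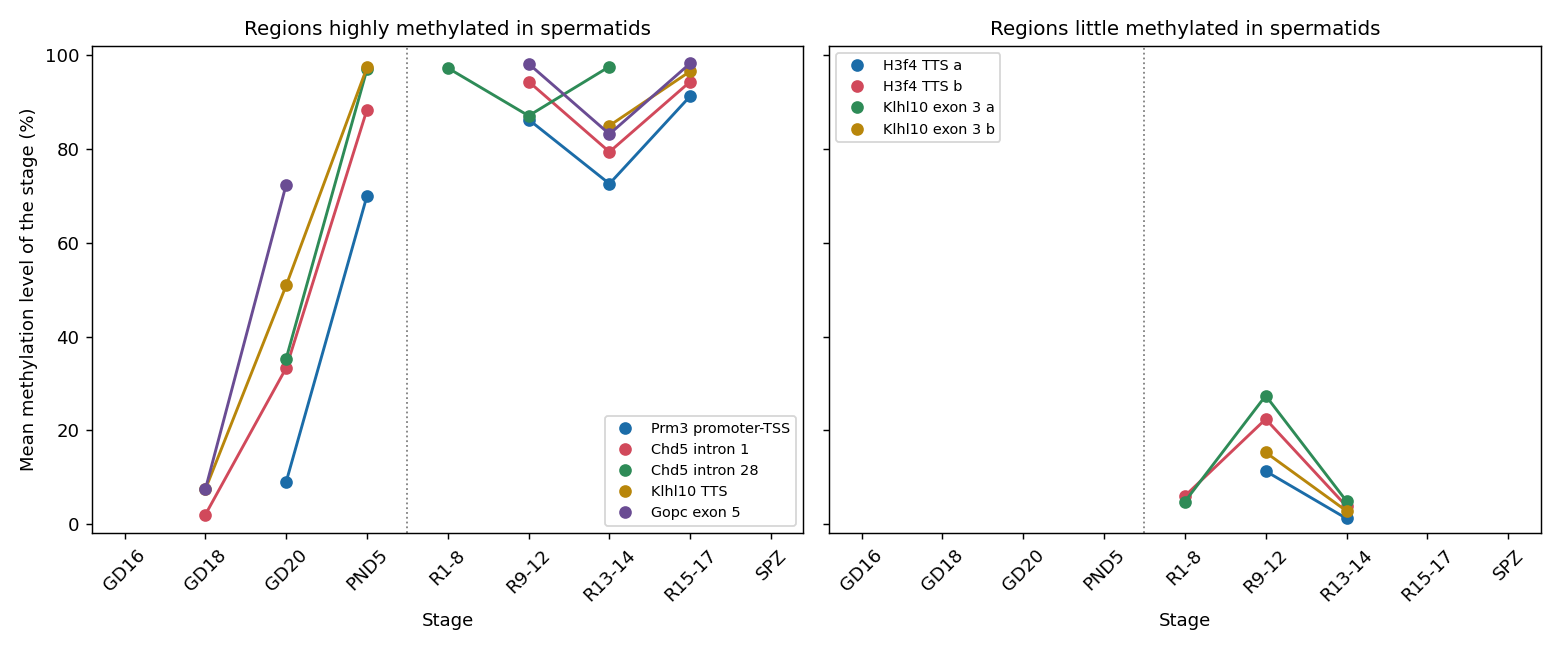
Mean methylation level in percent (vertical axis) at each stage (horizontal axis) of the 9 regions of the 5 genes that have a spermatid level, with lines joining stages compared in a list and a dotted line where PND5 and R1-8 were not compared. On the left, Prm3, Chd5 intron 1 and Gopc exon 5 have their lowest spermatid level at R13-14 and Chd5 intron 28 at R9-12. On the right, the H3f4 and Klhl10 exon 3 regions have their highest listed level at R9-12, and 2 of these 4 have no level at R1-8.

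Counted over all 23 regions, 17 had risen by GD20 since GD18 and 16 by PND5 since GD20, and none fell at these steps. Of all 60036 regions, 74.1% rose and 0% fell at the first of these steps, and 77.7% rose and 0.00666% fell at the second. The shares of the members were 73.9% and 69.6%. Members could come only from gene-annotated regions with a symbol. Of these 28182 regions, 23023 rose at the first step and 22362 at the second, larger shares than among the members. The median differences of the members, 47.0 and 48.4 points, lay beside 49.5 and 45.6 points over all rising regions. No member was listed from GD16 to GD18, where 0.47% of all regions were, all of them lower at the later stage. The share of regions listed is a share of the 60036, since the number of regions tested is unknown here.

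At the spermatid steps 9 of the 23 regions were listed, against 15.7% of all regions and 2992 of the 28182 gene-annotated regions with a symbol. From R1-8 to R9-12 the H3f4 and Klhl10 exon 3 regions named above rose, 2 regions against a background of 4.14%, and Chd5 intron 28 fell, 1 region against 2.06%. From R9-12 to R13-14, 7 regions fell, at least 1 in each of the 5 genes, against a background of 7.5%, and Chd5 intron 28 was the only one to rise, against 1.85%. From R13-14 to R15-17, 4 regions rose, in Prm3, Chd5, Klhl10 and Gopc, against 3.67%, and none fell, against 1.36%. No member was listed from R15-17 to spermatozoa, where 2.82% of all regions were. The genes were chosen with such results known, so their spermatid share is not independent evidence that they stand apart.

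**Figure D4:**
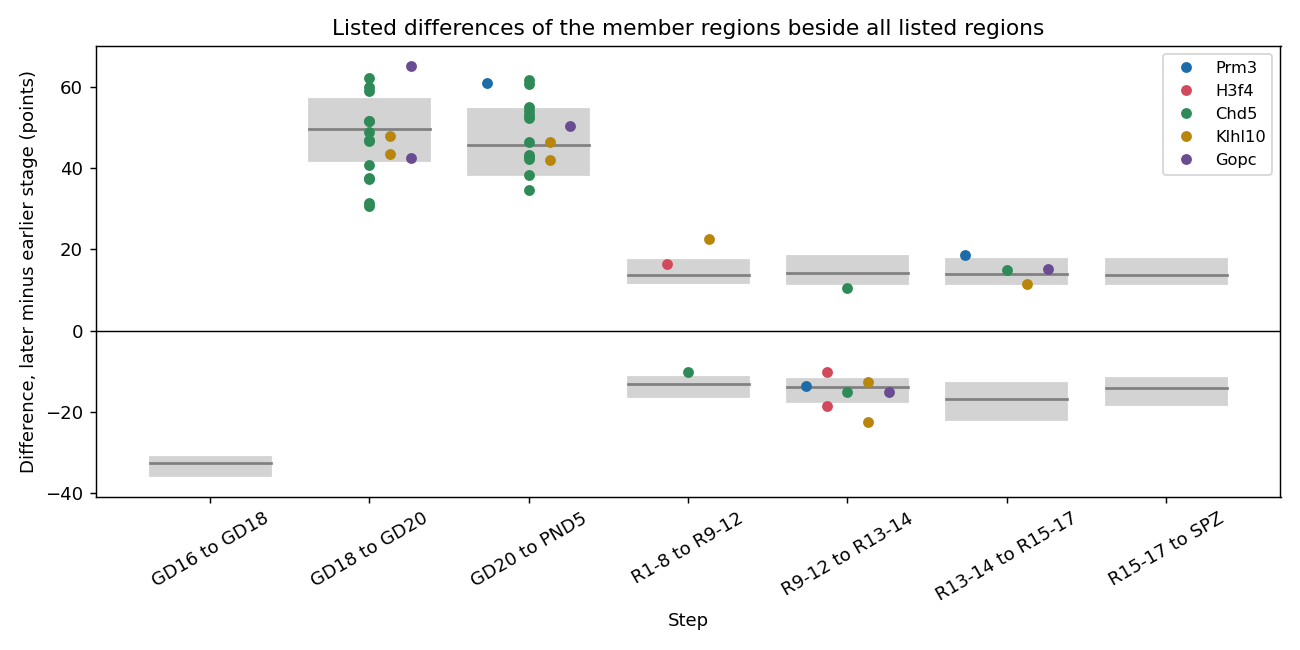
Listed difference in points of percent, later minus earlier stage (vertical axis), of the regions of the 5 genes (coloured points, 1 colour per gene) at each of the 7 steps (horizontal axis), beside the middle 50% of all listed regions of the same direction (grey boxes, median as a line). Chd5 regions spread from 30.7 to 62.1 points at GD18 to GD20, and Klhl10 exon 3 has the largest spermatid rise and fall, 22.6 and -22.5 points.

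The 9 spermatid regions fell into 2 forms that differed in level and in CpG density. The 4 regions of H3f4 and Klhl10 exon 3 had 4.79 to 12.766 CpGs per 100 bp and stood at 1.2% to 27.4% wherever a level was listed. The 5 regions of Prm3, Chd5, Klhl10 and Gopc that were highly methylated had 0.988 to 4.202 CpGs per 100 bp and stood at 72.6% to 98.3% in spermatids. The median over all 60036 regions was 2.16 CpGs per 100 bp. Medians were 3.68 in the authors' spermatid cluster 3, 2.38 in cluster 8 and 2.21 in cluster 7. All 9 regions but Prm3 belong to these clusters, so the 2 forms are not independent of the authors' clustering. All 5 of the highly methylated regions also had a fetal or neonatal level and had risen there, and none of the 4 others had one. The clusters as a whole differed likewise. A GD20 level was listed for 1608 of 1701 regions in cluster 8 and 1092 of 1118 in cluster 7, against 26 of 2302 in cluster 3. Fetal and neonatal levels were listed only with a difference of at least 30 points, so a region that stayed low could have none. These contrasts are therefore not independent of the listing. The authors placed the H3f4 and Klhl10 exon 3 regions in cluster 3, with medians of 4.9% at R1-8, 16.7% at R9-12 and 3.5% at R13-14. They placed Chd5 intron 1, the Klhl10 termination site and Gopc exon 5 in cluster 8, with medians of 97.1% at R9-12, 84.7% at R13-14 and 97.8% at R15-17, and Chd5 intron 28 in cluster 7, with 96.8%, 84.6% and 97.0% from R1-8 to R13-14. At R9-12 the regions at 27.4% in Klhl10 exon 3 and 22.4% in H3f4 lay above the cluster 3 median, and their adjoining regions, at 15.3% and 11.3%, lay below it.

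Other genes with nearly the same levels were found for each region with levels at 3 or more stages, by the root mean square difference over exactly those stages. Klhl10 exon 3 was closest to an exon of Galnt17, at 0.37 points over 3 stages among 706 regions, and H3f4 to an exon of Mypn, at 0.65 points. For the Prm3 promoter, among 426 regions with its 5 stages, the nearest was an intron of Mup4l3 at 3.91 points, followed by introns of Sox5 at 4.12 points and mrpl11 at 4.31 points. The first intron of Chd5 was 2.41 points from an exon of Rtca over 6 stages among 270 regions, Chd5 intron 28 was 1.11 points from an intron of Pigu, the Klhl10 termination site 0.9 points from an intron of Hspa14, and Gopc exon 5 0.92 points from an intron of Clk3. Distances over different numbers of stages and regions cannot be ranked against each other.

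The wider pathways were described by 6 gene lists, of which only genes named in the authors' annotated tables could have a region. Among nuclear basic proteins and testis histones, 5 of 17 genes were named. Prm1 and Tnp2 rose from GD18 to GD20, where 84.5% of the 8133 named genes had a rising region. From GD20 to PND5, 4 of the 5 rose, against 90.8%, Hils1, a linker histone of spermatids, from 33.2% to 85.6%. At any spermatid step 2 of the 5 were listed, which were Prm3 and H3f4, against 26.6% of named genes. Prm3 is counted in this list although its protein is acidic.

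Among factors of histone removal and chromatin remodelling, 17 of 27 genes were named and all 17 had a region rising from GD18 to GD20, against 84.5% of all named genes, with a median difference of 51.2 points against 50.5 over all named genes. Ubr2, a ubiquitin ligase for histones, rose from 10.4% to 91.9% in intron 11, and Rnf8, a further ligase of this kind, from 8.1% to 80.4% in intron 7. From GD20 to PND5 14 rose, or 82.4% against 90.8%. In spermatids 2 of the 17 were listed, or 11.8% against 26.6%, which were Chd5 and Dot1l, a histone methyltransferase, whose first intron fell from 96.8% at R1-8 to 86.6% at R9-12 (adjusted p = 1.22e-04 in the authors' deposited table).

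Among genes of spermatid transcription and translation control, 10 of 22 were named. By GD20 9 rose, or 90.0% against 84.5% of all named genes, and by PND5 8, or 80.0% against 90.8%. Tdrd6, a protein of the chromatoid body, held a region in exon 1 that fell from 26.8% at R9-12 to 5.9% at R13-14 (adjusted p = 6.62e-05 in the authors' deposited table), and Papolb, a testis poly(A) polymerase, fell from 17.9% to 7.2% in its exon at the same step. In intron 9 of Ddx25, an RNA helicase, the level instead rose at that step, from 86.2% to 96.7%, after 97.3% at R1-8. With Ddx25, 3 of the 10 were listed in spermatids, beside 26.6% of all named genes. Among genes of the Klhl10 ligase and spermatid proteolysis, 9 of 16 were named and 8 rose at each of the 2 fetal and neonatal steps, or 88.9% against 84.5% and 90.8%. Besides Klhl10, only Usp26, an X-linked ubiquitin protease, was listed in spermatids, 2 of 9 genes or 22.2% against 26.6%, and its promoter region followed 3.4%, 20.7% and 9.4% from R1-8 to R13-14.

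Among genes of acrosome formation and Golgi trafficking, 21 of 39 were named. By GD20 16 rose, or 76.2% against 84.5% of all named genes, and by PND5 19, or 90.5% against 90.8%. Tmf1, a Golgi tether, rose from 25.1% to 97.6% in exon 2 at the second step, and Pick1, a partner of Gopc in mouse vesicle traffic, from 31.5% to 97.2%. In spermatids 5 of the 21 were listed, or 23.8% against 26.6%. Golga4, a Golgi tether, peaked at R9-12 with 24.9%, after 9.3% at R1-8 and before 6.2% at R13-14. Stx2, a syntaxin of membrane fusion, dipped at R13-14 to 83.0%, between 98.7% at R9-12 and 97.7% at R15-17.

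Markers of Sertoli, Leydig, peritubular, blood and endothelial cells were listed as well. Of 18 such genes 11 were named. By GD20 7 rose, or 63.6% against 84.5% of all named genes, and by PND5 9, or 81.8% against 90.8%. In spermatids 4 of the 11 were listed, or 36.4% against 26.6%, and they took different courses. Cldn11, a junction protein of Sertoli cells, stood at 1.9% at R1-8, 40.6% at R9-12 and 1.8% at R13-14 in a region of 5 CpGs, low, high and low as in the 3-stage regions of H3f4 and Klhl10 exon 3. The promoter of Inha, a hormone subunit of Sertoli cells, ran the other way, with 91.9%, 76.7% and 95.2% at these stages. The endothelial genes Tie1 and Pecam1 had falling intron regions, Tie1 from 24.6% at R9-12 to 6.8% at R13-14 and Pecam1 from 22.5% at R13-14 to 10.8% at R15-17. Whether other cells in the sorted samples had a part in the levels of the 5 genes was not tested.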

How the data were processed

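DNA methylation of rat male germ cells was measured by capture bisulfite sequencing. Per the submitters' processing notes the tools included Bowtie2 and Bismark 0.19.0. The levels are fractions deposited by the authors as the mean of a stage, per the file headers, and were multiplied to percent here. Each region also has the authors' deposited p-value, from a two-sample t test per the file headers, and an adjusted p-value. What was sampled in that test (CpGs, reads or animals) is not stated in the headers. With 4 samples per stage, a test over samples could hardly give p-values as small as the 4.61e-34 of Prm3 from GD20 to PND5. The p-values are therefore not read here as a measure of the spread between samples. The CpG number, length and annotation of a region are the authors' deposited values.

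Levels of the 23 regions were joined from the 7 lists by coordinates, the list start being 1 bp lower. Where 2 lists gave the same region and stage, the value was the same in 40522 of 40522 cases, equal as written. A symbol was found for 28182 of the 29951 gene-annotated regions (94.1%) in the RefSeq table of GRCr8, which served for names. Regions counted as listed had an adjusted p of at most 0.05. The join by coordinates and the search for the most alike region were tested on simulated data.

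Stages came from the sample titles. Depth, coverage minimum and genome build: not given in the sources used here. No test was made here, and the sources used here hold stage means without values per sample. Members and gene lists were chosen with earlier results of these data known. Named were all members, for each list and step at most 3 genes with the largest difference, the 3 most alike regions and listed regions within 20 kb. Python 3.11.15, pandas 2.3.3, numpy 2.4.6 and matplotlib 3.10.9 were used. Alternatives were stricter thresholds, other ways of matching regions and genes, and other distances to neighbours.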

Additional observations from a re-analysis of the deposited data

How the results depend on the processing

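All 33 fetal and neonatal differences of the members passed at an adjusted p of at most 0.01 or 0.001, and 27 were at least 40 points. The spermatid differences depended on the threshold: 5 of 15 passed at 0.01, 3 at 0.001, and 2, both of Klhl10 exon 3, were at least 20 points. By its construction a stricter threshold can only take regions away. Under 0.01 the counts were 1 higher and 0 lower from R1-8 to R9-12, 0 higher and 3 lower from R9-12 to R13-14, and 1 higher from R13-14 to R15-17. Under 0.001 they were 1, 0, 0, 1 and 1, and under the larger difference 1, 0, 0, 1 and 0.

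Under the larger difference, 1 nuclear basic protein gene rose from GD18 to GD20 and 5 proteolysis genes from GD20 to PND5. In spermatids the larger difference left 0 nuclear basic protein, 0 histone removal, 1 transcription, 1 proteolysis, 0 acrosome and 1 somatic marker gene. The threshold of 0.01 left 1 gene of the nuclear basic protein list there, Prm3, with 1 histone removal, 3 acrosome and 2 somatic marker genes. Within 5 kb there were 2 neighbours of Prm3, 3 of Chd5 and 0 of Klhl10, and within 50 kb 7 of Prm3, 3 of H3f4, 29 of Chd5 and 4 of Klhl10. Matching by any overlap, weighted by CpG number, or by a reciprocal overlap of 50% also gave 76 levels. Matching by any overlap or by other gene identifiers gave the same counts of member regions at each step at which members were listed. No paired analysis was possible because the files used here hold stage means and no value per sample, and for that reason leaving out replicates was not run either. Depth behind the levels is unknown.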

Other observations

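Some promoter regions near or functionally close to the 5 genes changed at the last step, at which no region of the 5 genes was listed. The promoter region of Spaca1, an acrosomal membrane protein, rose from 1.6% at R15-17 to 12.0% in spermatozoa (adjusted p = 0.00155 in the authors' deposited table). A promoter region of Usp26, apart from the one that peaked at R9-12, rose from 0.7% to 11.8% (adjusted p = 0.00227 in the authors' deposited table). The Rpl22 promoter, 14901 bp from the first listed region of Chd5, stood at 1.4% at R9-12, 18.1% at R13-14, 0.0% at R15-17 and 13.8% in spermatozoa. Its highest listed level, 18.1%, was thus at R13-14, the stage at which the first intron of Chd5 had its lowest spermatid level of 79.4%. Whether the levels of these regions are related was not tested.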
